A study of Mus musculus with 4 samples.

Results

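The genes that make, sense and move cholesterol were followed in single mouse embryos with and without Mettl14, a subunit of the complex that writes N6-methyladenosine on RNA. The set was a fixed list of 28 genes by symbol: 18 enzymes of cholesterol synthesis, 5 genes of the SREBP control circuit and 5 genes of sterol transport and storage. All 28 were found among the 47885 rows of the table and all 28 passed the filter on low counts, which left 15563 genes for testing. The list is not the whole pathway, and genes outside it and outside the lists named below were not analysed here. Libraries came from 4 whole embryos of C57BL/6 background at embryonic day 5.5, 1 embryo each. The KO group held 2 embryos labelled Mettl14-/- and the WT group 2 embryos labelled Mettl14+/+. Genotype was called after sequencing, by qPCR for Mettl14 on the amplified cDNA, so WT means embryos that expressed the gene and may include heterozygotes. The labels do not give the allele, its deleted part or the litters.

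Cholesterol is built from acetyl-CoA, first through mevalonate to farnesyl pyrophosphate, then through squalene to lanosterol and its later sterols. When sterol in the endoplasmic reticulum is low, SCAP carries SREBP to the Golgi, where SREBP is cleaved into a transcription factor for these same enzyme genes, while INSIG proteins hold SCAP back when sterol is plentiful. In the egg cylinder the visceral endoderm takes up and secretes lipid for the epiblast, which is the tissue that forms the embryo proper. Loss of sterol synthesis disturbs development, among other ways through hedgehog signalling, which uses cholesterol directly.

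Total counts ran from 16108062 to 28698541 per library, and 1 count was worth 0.0358 to 0.0589 CPM (counts scaled to the library size with TMM factors). Mettl14 stood at 33.9 and 31.6 CPM in WT and 4.62 and 8.03 CPM in KO, which is not independent of how the embryos were classed. Tissue markers differed between the groups and within them. Visceral endoderm markers summed to 800.4 and 2089 CPM in WT and to 296.4 and 375.6 CPM in KO, with lower values in KO for 14 of 15 tested markers of 17 listed. Apoa1 alone made up most of each sum (440 and 1107 CPM in WT, 172 and 194 CPM in KO). Maternal decidua markers were scarce, and their sums were lower in KO (3.35 and 3.58 CPM) than in WT (10.2 and 12.3 CPM). All 4 tested of 6 listed had lower values in KO. Col1a1, too scarce to be tested, went the other way, with at most 0.236 CPM per WT embryo and at least 0.394 CPM per KO embryo. Prl8a2, also untested, had reads only in KO replicate 1 (0.377 CPM). The part of decidua markers in the results below was not tested. Epiblast markers summed to 2767 and 2699 CPM in WT and to 2052 and 3150 CPM in KO. Utf1 and Dnmt3b together made up most of each sum. Utf1 had 795 and 959 CPM in WT and 851 and 1494 CPM in KO. Dnmt3b had 1208 and 869 CPM in WT and 559 and 704 CPM in KO. Ectoplacental cone and giant cell markers summed to 176.2 and 291.2 CPM in WT against 1208 and 623.5 CPM in KO, with Prl2c2 and Tpbpa at 0 in all 4 libraries. In whole embryos, fewer cells of a type and less RNA per cell cannot be told apart. Replicates were separate animals, and the p-values below rest on just these 4 animals. The tests also draw the variance estimate of each gene partly from other genes.

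The 28 sterol genes did not all differ between KO and WT in the same direction. Stard4, which carries sterol between membranes, had the largest difference, with 3.81-fold lower mean CPM in KO than in WT. Insig1, Srebf1 and Srebf2 of the control circuit also had lower values in both KO embryos. The enzymes, which are the usual targets of that circuit, had group averages close together: 16 of 18 (88.9%) differed by less than 0.5 on the log2 scale, as did 55.5% of all genes. These shares were not matched for level. Mean log2 CPM per embryo was 5.60 to 6.22 for the enzymes and 3.19 to 3.42 over all genes tested. The KO embryos lay on either side of WT: the median log2 fold change of the 18 enzymes was -0.03 with all libraries, 0.30 without KO replicate 1 and -0.28 without KO replicate 2. By edgeR's quasi-likelihood test none of the 28 passed an adjusted p of 0.05, where 0.0% of all 15563 genes were called. Only Stard4 had an unadjusted p under 0.05 (7.82% of all genes had such a p, 3.08% with lower values and 4.74% with higher). DESeq2 called 1 of the 28, Stard4, where 1.48% of all genes were called, 0.572% lower and 0.906% higher, and limma-voom called 0 of the 28 and 0.0% of all genes.

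The median log2 fold change (KO over WT) was -0.03 over the 28 genes, the same as the -0.03 over all genes tested. Values were higher in KO for 11 and lower for 17 (60.7% lower, against 52.3% of all genes tested). The groups did not overlap for 6 of 28 genes lower in KO (21.4%, against 18.8% of all genes) and for 2 genes higher in KO (7.14%, against 19.4%). The first share was near the background and the second below it. The 6 were Stard4, Insig1, Srebf2, Srebf1, Hsd17b7 and Fdps, and the 2 were Pmvk and Scap. Fold changes within 0.5 of 0 made up 75.0% of the list and 55.5% of all genes, again without matching for level. The sign of the median rested on single libraries: it was 0.21 without KO replicate 1, -0.24 without KO replicate 2, 0.05 without WT replicate 2 and -0.16 without WT replicate 1.

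**Figure D1:**
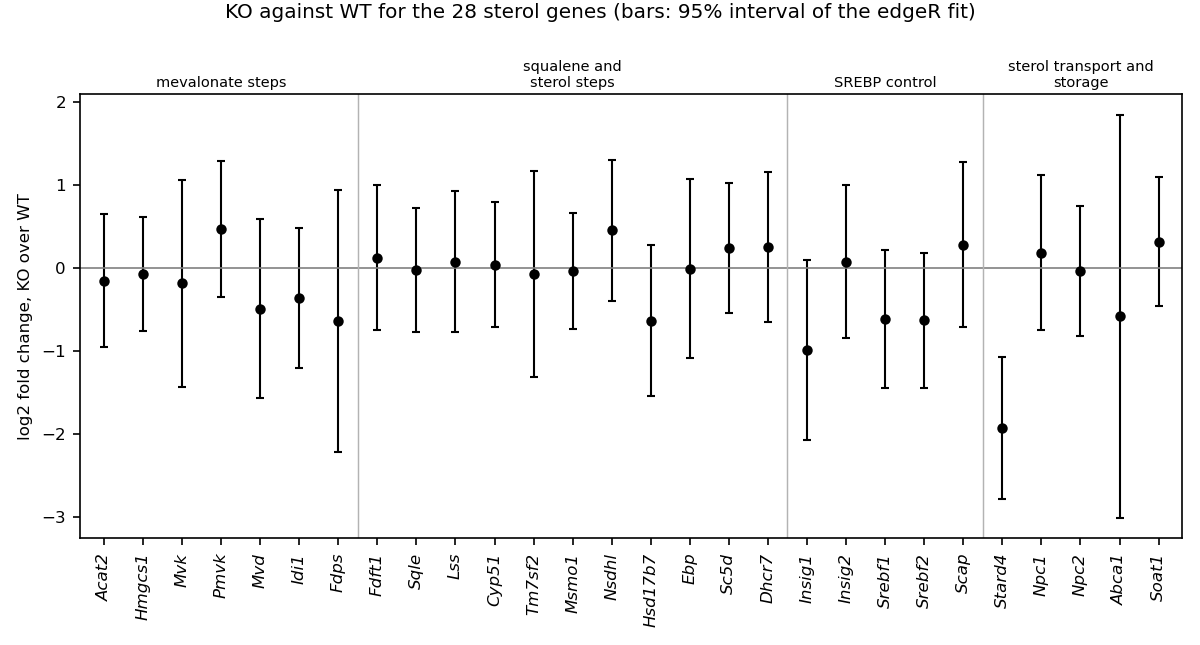
Log2 fold change of KO over WT (vertical axis) for the 28 genes by role, with bars for the unadjusted 95% interval of the edgeR fit (2 embryos per group). The interval for Stard4 runs from -2.78 to -1.07, and those of the other 27 genes include 0.

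The 7 genes up to farnesyl pyrophosphate had a median log2 fold change of -0.18, with 6 lower values and 1 higher. Acat2, the cytosolic thiolase that makes acetoacetyl-CoA, averaged 172 ± 36.0 CPM in WT against 155 ± 48.0 in KO (SD, n = 2). Its close copy Acat3 had at most 31 counts in any library, and the pair may share reads. Hmgcs1, which makes HMG-CoA, had 178 and 150 CPM in WT and 152 and 161 CPM in KO. Both KO embryos lay inside the WT range, and the log2 fold change was -0.07 with a 95% interval from -0.76 to 0.61. The interval thus leaves room for a change of either sign.

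Mvk and Pmvk phosphorylate mevalonate in sequence. Mvk had 25.0 and 45.9 CPM in WT and 16.6 and 45.8 CPM in KO, so the groups overlapped and KO spanned nearly the whole range. Pmvk had 69.1 and 69.4 CPM in WT and 73.5 and 118 CPM in KO, a log2 fold change of 0.47 (SE 0.36). Both KO values lay above WT, 1 of them by little. Mvd, which decarboxylates the product to isopentenyl pyrophosphate, had 64.1 and 115 CPM in WT and 39.7 and 87.8 CPM in KO, a log2 fold change of -0.49 (SE 0.47). Idi1, the isomerase that follows, had 185 and 299 CPM in WT and 147 and 230 CPM in KO, a log2 fold change of -0.36 (SE 0.37). For Mvd and Idi1 KO replicate 2 lay between the WT embryos and KO replicate 1 below both.

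Fdps, the synthase of farnesyl pyrophosphate, was listed far below its neighbours in the pathway, with 50 and 74 counts (WT) and 42 and 68 counts (KO). In GENCODE M21 its exons share 1124 bases on the same strand with Gm43738, a longer overlapping gene model with 0 counts in all 4 libraries. How reads in the shared exons were counted is not stated, so the level of Fdps is uncertain. Its values were 2.94 and 3.95 CPM in WT and 1.98 and 2.44 CPM in KO, with no overlap, and its log2 fold change of -0.64 (SE 0.69) had an edgeR adjusted p of 0.903. The median of these 7 genes was -0.71 without KO replicate 2 and turned positive without WT replicate 2 (0.04) or KO replicate 1 (0.05).

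The 11 genes from squalene to cholesterol had a median of 0.04, with 6 higher values and 5 lower. Fdft1, squalene synthase, had the highest mean CPM of the 28, at 237 and 285 CPM in WT and 187 and 383 CPM in KO. The KO embryos lay on either side of both WT embryos. Its exons overlap those of Ctsb on the opposite strand over 774 bases, and reads of the pair cannot be told apart without strand. Sqle, the epoxidase that is a slow step of the pathway, had 152 and 133 CPM in WT and 115 and 165 CPM in KO, a log2 fold change of -0.02 (95% interval from -0.77 to 0.72). Lss, which closes the ring to lanosterol, and Cyp51, which removes its methyl group at carbon position 14, had log2 fold changes of 0.08 and 0.04. Their groups overlapped. Exons of Cyp51 overlap Akap9 on the opposite strand over 166 bases.

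Msmo1 and Nsdhl work in turn to strip a further pair of methyl groups. Msmo1 had 219 and 240 CPM in WT and 189 and 259 CPM in KO. Nsdhl, on the X chromosome, had 64.2 and 58.2 CPM in WT and 62.3 and 105 CPM in KO, a log2 fold change of 0.45 (SE 0.37). KO replicate 1 lay within the WT range and KO replicate 2 above it.

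Hsd17b7, the ketoreductase of the same step, was the enzyme with the smallest p. It had 23.1 and 20.3 CPM in WT and 14.6 and 13.3 CPM in KO, so the groups did not overlap and the replicates of each group lay close together. Its log2 fold change was -0.63 (SE 0.40, edgeR adjusted p = 0.785), with a range from -0.71 to -0.52 over the 11 alternatives.

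Of the last steps, Ebp, the sterol isomerase encoded on the X chromosome, had 34.4 and 86.9 CPM in WT, a spread wider than that of KO (52.2 and 68.4 CPM). Sc5d, a desaturase, had 69.4 and 81.4 CPM in WT and 74.6 and 103 CPM in KO (log2 fold change 0.24, SE 0.34), and the groups overlapped. Dhcr7, the reductase lost in Smith-Lemli-Opitz syndrome, averaged 25.98 ± 0.0613 CPM in WT (SD, n = 2), with 23.9 and 38.2 CPM in KO. Tm7sf2, a sterol reductase, averaged 11.5 ± 1.26 CPM in WT against 11.0 ± 6.66 in KO (SD, n = 2), and shares 532 exon bases on the same strand with Vps51. The median of the 11 genes was 0.35 without KO replicate 1 and -0.21 without KO replicate 2.

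**Figure D2:**
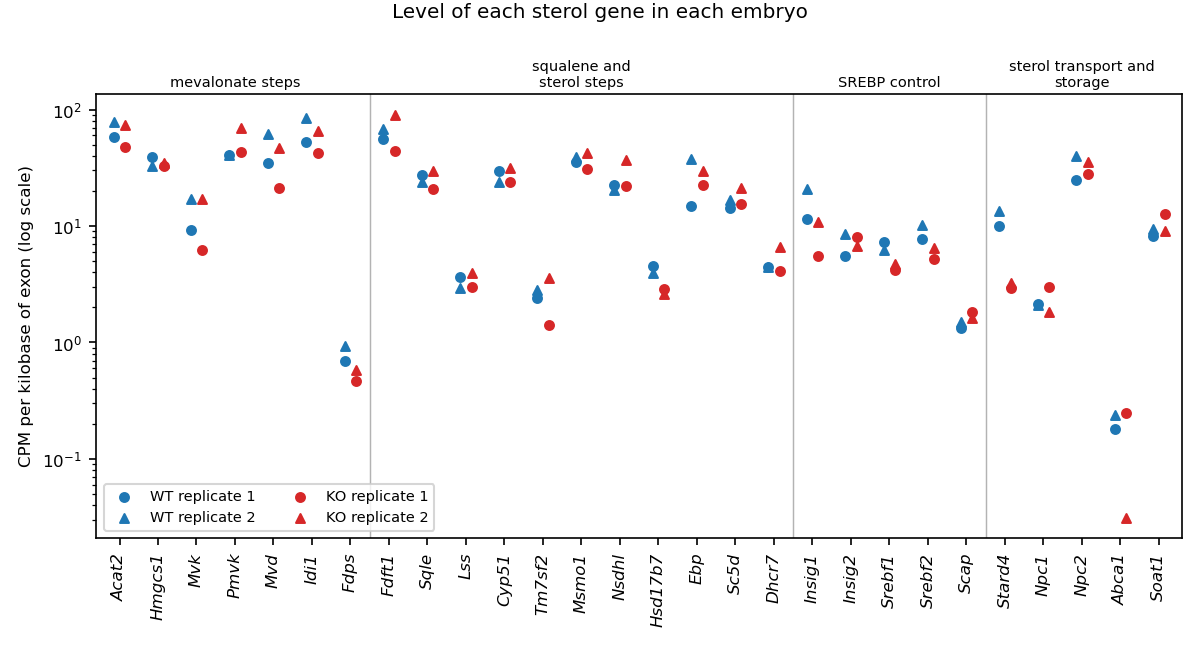
CPM per kilobase of exon (vertical log axis) for each of the 28 genes in each embryo, with WT in blue and KO in red and replicates 1 and 2 as circles and triangles. Red and blue points mix for most enzymes, while both red points of Stard4 sit below both blue points.

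The enzymes differed between KO embryos more than between the groups. Their summed level was 1678 and 1963 CPM in WT and 1415 and 2168 CPM in KO. The median log2 difference of the 18 genes was -0.31 and -0.41 for KO replicate 1 against WT replicates 1 and 2, and 0.41 and 0.21 for KO replicate 2. Between the KO embryos it was 0.58, and between the WT embryos 0.18. Epiblast markers showed differences of -0.45 and -0.61 for KO replicate 1 and of 0.52 and 0.21 for KO replicate 2. Other tissue lists also separated the KO embryos. The median log2 difference of KO replicate 2 over KO replicate 1 was 0.52 for epiblast and 0.90 for visceral endoderm markers. It was 0.32 for parietal endoderm, -0.78 for extraembryonic ectoderm and -1.60 for ectoplacental cone and giant cell markers. The part of these tissues in the enzyme values was not tested. In 15 of the 28 genes (53.6%) replicate 2 was higher than replicate 1 in both groups, which held for 29.8% of all genes; replicates 2 were also the deeper libraries of each group.

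Levels spread over more than 2 orders of magnitude. Per kilobase of exon, Idi1 was highest in WT at 69.1 CPM per kilobase, followed by Acat2 at 67.7 and Fdft1 at 61.8, and these 3 did not differ beyond the spread between embryos. Mvd (48.1), Pmvk (40.4), Msmo1 (37.4) and Hmgcs1 (35.8) came next. Among enzymes Hsd17b7 (4.25), Lss (3.30) and Tm7sf2 (2.62) were low besides Fdps (0.819), and Abca1 was lowest of all at 0.209 CPM per kilobase. Exon length counted every annotated exon, retained introns included, which lowers the value of genes with many models such as Fdps and Lss.

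The control circuit had values lower in KO for 3 of 5 genes and a median of -0.62. The groups did not overlap for these 3 (60.0%, against 18.8% of all genes) nor for Scap, which was higher in KO (1 of 5, 20.0%, against 19.4% of all genes). Insig1, which anchors SCAP in the endoplasmic reticulum and is itself a target of SREBP, had 35.7 and 63.9 CPM in WT and 17.0 and 33.4 CPM in KO. KO replicate 2 lay just under WT replicate 1, and replicates within each group differed by 1.79-fold and 1.97-fold. Its log2 fold change was -0.98 (SE 0.47, unadjusted p = 0.0702, edgeR adjusted p = 0.693). It was -0.49 without WT replicate 2, -0.50 without KO replicate 1 and -1.55 without KO replicate 2.

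Srebf2, which encodes the SREBP most tied to cholesterol genes, had 55.2 and 74.0 CPM in WT and 37.5 and 46.1 CPM in KO, a log2 fold change of -0.63 (SE 0.35, edgeR adjusted p = 0.759). Srebf1, whose product acts more on fatty acid genes, had 41.2 and 35.0 CPM in WT and 23.4 and 26.3 CPM in KO, a log2 fold change of -0.62 (SE 0.36, edgeR adjusted p = 0.768). For both genes every KO value lay below every WT value. Exons of Srebf1 overlap Rai1 on the opposite strand over 109 bases. Gene counts do not separate the transcripts that start at different Srebf1 promoters.

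The remaining pair lay on the other side of 0. Insig2, the paralog of Insig1 that does not depend on SREBP in the same way, had 19.3 and 29.4 CPM in WT and 28.1 and 23.3 CPM in KO, and its groups overlapped. Its log2 fold change was 0.08 (95% interval from -0.84 to 0.998), against an interval from -2.07 to 0.10 for Insig1. Whether the paralogs differed from each other was not tested. Scap, the escort protein, had 9.89 and 11.2 CPM in WT and 13.6 and 12.1 CPM in KO, a log2 fold change of 0.28 (SE 0.43). The median of these 5 genes was -0.39 without WT replicate 2 and -0.41 without KO replicate 1.

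The promoters of the 4 members that followed Stard4 in order of p are shown here, together with that of Hmgcs1, an enzyme whose KO values lay inside the WT range and which was added after its values were seen. The promoter of Stard4 is not shown. Each run is 300 bases of the GRCm38.p6 sequence from RefSeq, 5′ to 3′ on the strand of the gene. The windows are chr5:28071162-28071461 (plus strand) for Insig1, chr15:82147019-82147318 (plus) for Srebf2, chr11:60222532-60222831 (minus) for Srebf1, chr1:169969156-169969455 (minus) for Hsd17b7 and chr13:119690101-119690400 (plus) for Hmgcs1. Srebf1 has 3 windows in the table, and the first listed is shown. Capitals mark matches on either strand to CCAAT (bound by NF-Y), GGGCGG (bound by Sp1) and TCACNCCA, the core of the sterol regulatory element. In Hmgcs1 the capitals of the core run on to the final C of its longer form, TCACNCCAC.
Insig1: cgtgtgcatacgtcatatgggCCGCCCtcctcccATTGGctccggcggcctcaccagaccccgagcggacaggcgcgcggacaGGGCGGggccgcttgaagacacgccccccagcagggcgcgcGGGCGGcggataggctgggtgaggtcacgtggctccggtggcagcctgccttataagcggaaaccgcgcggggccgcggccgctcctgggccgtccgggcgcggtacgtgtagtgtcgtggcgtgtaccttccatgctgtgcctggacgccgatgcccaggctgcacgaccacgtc
Srebf2: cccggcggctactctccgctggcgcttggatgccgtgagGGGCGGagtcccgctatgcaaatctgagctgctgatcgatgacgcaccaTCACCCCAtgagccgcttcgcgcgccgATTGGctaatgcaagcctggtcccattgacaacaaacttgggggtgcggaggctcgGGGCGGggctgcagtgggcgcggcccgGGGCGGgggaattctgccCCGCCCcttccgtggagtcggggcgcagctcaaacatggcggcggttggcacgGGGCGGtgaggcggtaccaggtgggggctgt
Srebf1: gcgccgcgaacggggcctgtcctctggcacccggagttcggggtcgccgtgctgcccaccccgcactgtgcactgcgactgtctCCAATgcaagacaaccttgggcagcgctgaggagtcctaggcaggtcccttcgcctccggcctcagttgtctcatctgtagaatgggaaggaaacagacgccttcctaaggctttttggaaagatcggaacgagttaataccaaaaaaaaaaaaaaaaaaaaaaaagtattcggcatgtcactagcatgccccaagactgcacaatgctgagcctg
Hsd17b7: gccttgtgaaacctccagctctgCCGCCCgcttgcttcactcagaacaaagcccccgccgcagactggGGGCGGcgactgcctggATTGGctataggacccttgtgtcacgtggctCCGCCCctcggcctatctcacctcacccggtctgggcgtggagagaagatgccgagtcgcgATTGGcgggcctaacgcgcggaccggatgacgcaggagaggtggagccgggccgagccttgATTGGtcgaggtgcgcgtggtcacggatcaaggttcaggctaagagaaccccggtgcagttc
Hmgcs1: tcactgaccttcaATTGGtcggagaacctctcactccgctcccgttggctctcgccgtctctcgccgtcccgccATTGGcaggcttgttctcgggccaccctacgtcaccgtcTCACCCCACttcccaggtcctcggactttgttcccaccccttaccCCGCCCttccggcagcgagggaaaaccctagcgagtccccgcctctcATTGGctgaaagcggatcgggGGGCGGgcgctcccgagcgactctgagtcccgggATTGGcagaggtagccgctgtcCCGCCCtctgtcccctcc

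Sterol gene promoters are known for sterol regulatory elements that lie beside NF-Y and Sp1 sites. The table held 31 windows for 23 of the 28 genes. The 9-letter form TCACNCCAC, which contains the core, was found in 1 of the 31 windows, that of Hmgcs1, and in 1.24% of all 32851 windows. The core TCACNCCA, chosen after the windows had been read, was found in 3 windows (9.68%), those of Hmgcs1, Srebf2 and Msmo1, and in 4.36% of all windows. CCAAT was found in 67.7% of members' windows and 37.4% of all windows, and GGGCGG in 83.9% and 35.7%. The background windows were not limited to tested genes or matched for level. All searches covered both strands, and a match describes letters, not a bound site. Hmgcs1 held 4 CCAAT and 3 GGGCGG matches and Hsd17b7 held 3 and 3, while Insig1 held 1 and 3, Srebf2 1 and 5, and this Srebf1 window 1 and 0. Matches were thus present both in genes with lower values in KO and in Hmgcs1.

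The transport and storage genes had a median of -0.03, with 3 lower values and 2 higher. Stard4 (ENSMUSG00000024378, chromosome 18, 33199355 to 33213862 on mm10, minus strand) encodes a soluble carrier that moves cholesterol between the plasma membrane and the endoplasmic reticulum and is a target of SREBP2. Its counts were 949 and 1410 for WT against 345 and 507 for KO, or 55.9 and 75.3 CPM against 16.3 and 18.2 CPM. Both KO embryos lay far below both WT embryos, and the means differed 3.81-fold. The log2 fold change was -1.93 (SE 0.37, edgeR adjusted p = 0.274), rank 41 by p among the 15563 genes. DESeq2 gave an adjusted p of 0.000558 at the same fold, and leaving out any 1 library gave -2.11 to -1.69 with edgeR adjusted p between 0.0918 and 0.362.

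Visceral endoderm markers were lower in the same embryos, and their part in the Stard4 value was not tested. Averaged over the markers, log2 CPM was 4.11 and 5.58 for WT replicates 1 and 2, and 2.55 and 3.38 for KO replicates 1 and 2. Marker by marker, the median log2 difference of replicate 2 over replicate 1 was 1.33 in WT and 0.90 in KO. For Stard4 the same log2 differences were 0.43 in WT and 0.16 in KO. The marker average ranked the embryos as WT replicate 2, WT replicate 1, KO replicate 2 and KO replicate 1, from high to low. Stard4, Insig1, Srebf2 and Fdps had that same order, 4 of the 28 genes (14.3%, against 3.97% of all genes tested); the order was looked for after the values had been seen.

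**Figure D3:**
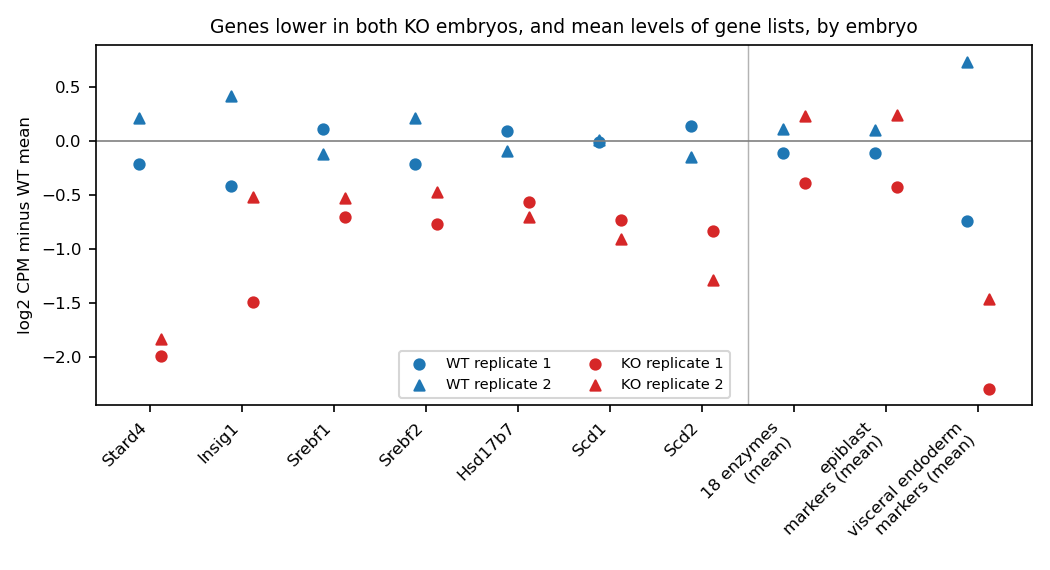
Log2 CPM minus the WT mean (vertical axis) in each embryo, with WT in blue and KO in red. On the left are 5 sterol genes, Scd1 and Scd2, all picked for lower values in both KO embryos. Other genes lower in both, such as Fdps, are not shown. List means are on the right (mean of log2 CPM with a prior count of 2). Stard4 and the visceral endoderm mean both lie lower in KO, and both differ between the replicates of each group, the marker mean by more. The enzyme mean differs more between the KO embryos than between the WT embryos.

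The other 4 transport and storage genes overlapped between groups. Npc1, the lysosomal membrane protein that exports cholesterol, had 24.2 and 23.8 CPM in WT and 33.9 and 20.7 CPM in KO. Its exons overlap Rmc1 on the opposite strand over 511 bases. Npc2, the soluble partner that hands cholesterol to NPC1, had 135 and 215 CPM in WT and 152 and 191 CPM in KO, inside the WT range. Soat1, which esterifies cholesterol for storage, had 79.8 and 91.6 CPM in WT and 125 and 88.2 CPM in KO (log2 fold change 0.32, SE 0.34), with KO replicate 2 inside the WT range. Abca1, which exports cholesterol to apolipoprotein A-I and is a target of the oxysterol receptor LXR, was scarce, with 32 and 46 counts (WT) and 55 and 9 counts (KO). Its KO values differed 8.04-fold, and its log2 fold change ran from -2.65 to 0.26 over the 10 alternatives in which it was tested.

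Related genes outside the 28 were read from 7 lists chosen with earlier results of these data known. Of their 78 genes 75 were tested. EdgeR and limma-voom called 0 of them at an adjusted p of 0.05 and DESeq2 called 2, Amn and Dab2, both lower (2.67%, against 0.572% of all genes called lower and 1.48% called in all). By edgeR 8 had an unadjusted p under 0.05 with lower values and 3 with higher values (3.08% and 4.74% of all genes). Other synthesis and redox partners had a median of 0.10 over 8 tested genes, with 5 higher values and 3 lower. Lbr, the lamin B receptor with sterol reductase activity, had 159 and 160 CPM in WT and 115 and 90.5 CPM in KO (log2 fold change -0.64, SE 0.31), while Cyb5r3 (0.47) and Cyb5b (0.40), of the electron supply, had higher values. The isoprenoid branch, which uses farnesyl pyrophosphate for other products, had a median of 0.06 over 13 genes, 8 higher and 5 lower. Dolk, dolichol kinase, had the lowest fold change there at -1.64 (SE 0.55), and Pggt1b and Fntb, subunits of prenyltransferases, had -0.55 and 0.36.

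Genes for SREBP processing and sterol-regulated degradation had a median of 0.21 over 10 genes, 6 higher and 4 lower. Mbtps2, the protease that makes the second SREBP cut, had 31.1 and 17.7 CPM in WT and 75.1 and 28.02 CPM in KO, and the groups overlapped. Syvn1, a ubiquitin ligase of the endoplasmic reticulum, had a log2 fold change of -0.65. No gene of this list had an unadjusted p under 0.05.

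The fatty acid targets of SREBP had lower values in KO for 8 of 11 genes (72.7%, against 52.3% of all genes), with a median of -0.40. Their groups did not overlap for 6 of 11 genes, all lower (54.5%, against 18.8% of all genes). Scd2, a stearoyl-CoA desaturase, had 426 and 348 CPM in WT and 217 and 157 CPM in KO, a log2 fold change of -1.05 (SE 0.31, edgeR adjusted p = 0.457). Scd1, its paralog, had 141 and 143 CPM in WT and 85.3 and 75.6 CPM in KO, a log2 fold change of -0.82 (SE 0.31, edgeR adjusted p = 0.568). Scd1 and Scd2 are close copies that may share reads. Acly, which supplies cytosolic acetyl-CoA, had a log2 fold change of -0.53, whereas Fasn, fatty acid synthase, had -0.07. A difference between this list and the sterol enzymes was not tested.

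Of 10 oxysterol and LXR genes 8 were tested, with values higher in KO for 6 of the 8 (median 0.79). Nr1h2, which encodes LXR beta, had 49.3 and 88.9 CPM in WT and 52.2 and 88.4 CPM in KO, while the other 7 tested genes had at most 5.84 CPM in any embryo. Ch25h and Hsd3b7 had 0 counts in all 4 libraries. Cyp7b1, an oxysterol hydroxylase, had 1.94 and 0.427 CPM in WT and 4.90 and 5.84 CPM in KO (log2 fold change 2.18, SE 0.84), and Nr1h3, which encodes LXR alpha, had at most 1.36 CPM in any embryo. Mylip, an LXR target that degrades lipoprotein receptors, had -0.99. Other sterol carriers and storage genes had a median of 0.03 over 16 tested of 17. Gramd1b, which moves sterol from the plasma membrane to the endoplasmic reticulum, had 11.8 and 12.4 CPM in WT and 3.73 and 4.77 CPM in KO, a log2 fold change of -1.51 (SE 0.48, edgeR adjusted p = 0.493). Soat2, the esterifying enzyme of gut and liver, had 5.54 and 21.2 CPM in WT and 2.74 and 4.23 CPM in KO, and Osbpl5, an oxysterol-binding protein relative, had a log2 fold change of 1.97.

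Lipoprotein uptake genes had lower values for 7 of 9 (77.8%, against 52.3% of all genes), with a median of -0.24. The lowest were Amn (-2.49), Dab2 (-1.88) and Cubn (-1.44), parts of the endocytic receptor complex of visceral endoderm. Amn and Cubn are also in the visceral endoderm marker list, so their values are not separate from it. Dab2 had 97.3 and 341 CPM in WT and 42.5 and 76.9 CPM in KO. Scarb1, the HDL receptor, differed by -0.07.

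**Figure D4:**
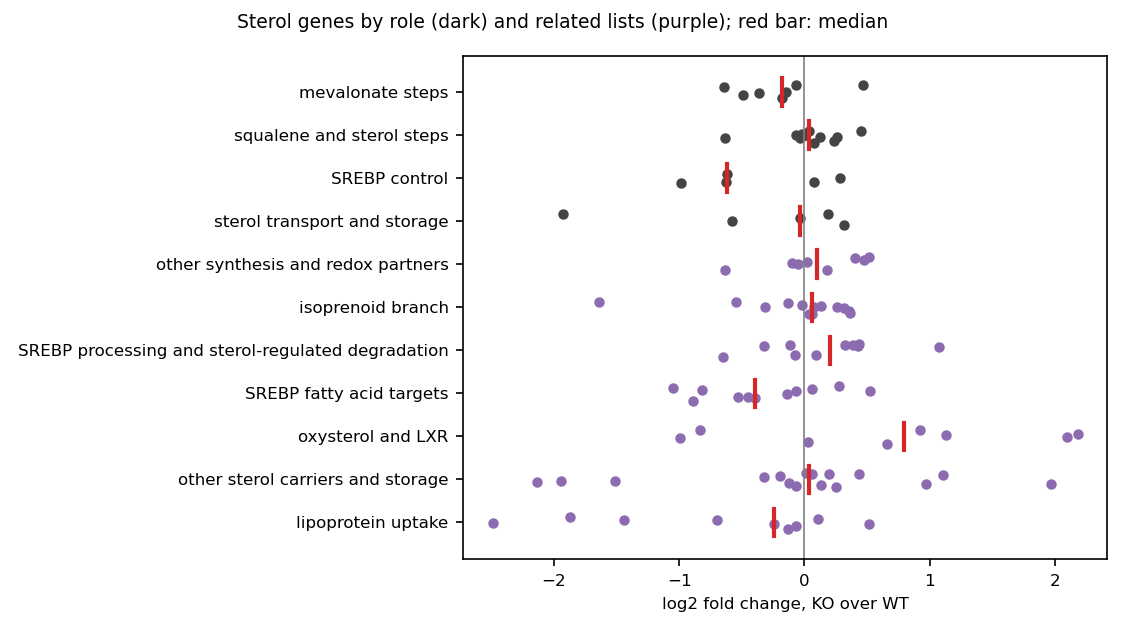
Log2 fold change of KO over WT (horizontal axis) for each tested gene of the 4 role groups of sterol genes (dark) and of the 7 related lists (purple), with a red bar at each median. Medians are -0.18 for mevalonate steps, 0.04 for squalene and sterol steps and -0.40 for the fatty acid targets. That of SREBP control is -0.62, with 2 of its 5 genes above 0. Differences between the lists were not tested.

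Since Mettl14 serves to place m6A, the letters GGACT, a common form of the methylated motif, were counted in the longest protein-coding transcript of each gene. The 28 genes had a median of 1.11 per kilobase, against 1.05 over 13224 tested protein-coding genes. Stard4 held 10 in 5097 bases (1.96 per kilobase) and Insig1 held 3 in 2697 bases (1.11 per kilobase). Lss (2.36), Ebp (2.29) and Mvd (2.28) were densest, while Idi1, Acat2 and Tm7sf2 had 0. Methylation itself was not measured in these data.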

How the data were processed

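Whole-embryo polyadenylated RNA from 4 single embryos was amplified by Smart-Seq v4 before paired sequencing, per the labels' protocols. The authors deposited whole-number read counts per gene, not normalised. The submitters' processing notes list TopHat, Cufflinks and mm10, with no version and no role. The program that counted reads, its annotation and its strand setting are unknown here. Of 47885 rows, 46574 were found in GENCODE M21, which gave symbols, positions and exon lengths; 816 had no Ensembl identifier and 495 were not found.

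KO was compared with WT over the whole table by edgeR 4.0.16 (R 4.3.3): the quasi-likelihood F test with robust dispersions, TMM scaling, genes kept by filterByExpr at a minimum count of 10 and a minimum total of 15, group as the only term, and Benjamini-Hochberg adjustment over 15563 genes. CPM were computed from the counts and TMM library sizes. The SE was set so that the squared ratio of fold change to SE equals F, so it restates the test, and 95% intervals use it with the fit's degrees of freedom. The test was also run on counts simulated with the dispersions fitted to these data, which cannot check those dispersions. An exact permutation test on 2 against 2 embryos cannot reach 0.05 and was not used. Alternatives were DESeq2 1.42.0, limma-voom (limma 3.58.1), RLE factors, library totals, no filter, at least 50 counts in 2 libraries, each library left out, and a replicate block.

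All 28 members are named. The 12 with the smallest p have every embryo's value, and up to 3 genes of each related list with the smallest p are named. Fasn, Scarb1, Nr1h2, Ch25h and Hsd3b7, embryo values for further members, and markers at 0 were added after their values were seen. The members and lists were chosen with earlier results of these data known. Protein sequences were not analysed here, and 1 gene of a related list enters the counts only.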

Additional observations from a re-analysis of the deposited data

How the results depend on the processing

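With 2 embryos a group, no difference of any size passed the threshold in the main edgeR test. Its log2 fold changes ran from -8.96 to 11.9 over all genes, and the smallest adjusted p was 0.245. Mettl14 itself had an edgeR adjusted p of 0.274. Counts of genes moved with the tool. All genes called numbered 0 higher and 0 lower, with 0 also by limma-voom, RLE factors, library totals and the filter of at least 50 counts. DESeq2 gave 141 higher and 89 lower, no filter on low counts 157 and 101, and leaving out 1 library 14 to 133 higher and 1 to 209 lower. Of the 28 sterol genes, 1 was called lower by DESeq2, with no filter and with the replicate block, Stard4 each time, at -1.93, -1.92 and -1.92 (adjusted p 0.000558, 0.00271 and 0.0405). No label ties a replicate number to a litter or day, so whether embryos of equal number form a pair is unknown. The main test treated them as unpaired. Across genes the WT and KO replicate differences correlated at 0.329, and the replicate block gave 52 higher and 19 lower.

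The median over the 28 genes ran from -0.24 to 0.21 with 1 library left out, mevalonate steps from -0.71 to 0.054, squalene and sterol steps from -0.21 to 0.35, and SREBP control from -0.69 to -0.39. Of the 28 genes, 10 kept their sign under each of the 11 alternatives: Stard4, Insig1, Srebf1, Srebf2, Hsd17b7, Fdps, Pmvk, Nsdhl, Soat1 and Scap. For the 8 of them whose groups did not overlap, leaving out a library could not readily turn the sign. Of the 22 other genes taken by the naming rule 21 did so. The remaining 18 genes, most of them near 0, changed sign under at least 1 alternative; the cause was not tested. With 1 library left out, fold changes ran as follows: Mvd from -1.16 to 0.053, Idi1 from -0.71 to 0.037, Sc5d from -0.0061 to 0.54, Dhcr7 from -0.11 to 0.64, Abca1 from -2.65 to 0.26, Npc1 from -0.13 to 0.51. Further ranges were Acat2 from -0.50 to 0.22, Mvk from -1.09 to 0.45, Fdft1 from -0.47 to 0.63, Hmgcs1 from -0.18 to 0.076, Lss from -0.13 to 0.35, Insig2 from -0.18 to 0.42. The last were Tm7sf2 from -0.87 to 0.52, Cyp51 from -0.17 to 0.31, Msmo1 from -0.27 to 0.26, Npc2 from -0.31 to 0.35, Sqle from -0.29 to 0.29, Ebp from -0.50 to 0.82, and outside the 28 Pggt1b from -1.39 to 0.026. Library totals gave 0.0052 for Npc2 and 0.047 for Ebp, which stood at 0.12 by limma-voom and 0.12 with the block.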
